A study of Saccharomyces cerevisiae with 28 samples.

Results

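Laboratory yeast strains that are all called wild type need not carry the same markers, the same mating type or the same regulatory state, so a mutant can only be read against its own parent. The RNA-seq series holds 28 libraries from 16 cultures of 8 strains of Saccharomyces cerevisiae, and it includes a wild type whose short name pairs it with the acs2-ts strain (the acs2 wild type) and BY4741, the common haploid laboratory strain, which is used here as the reference also for the sam1, ser33 and shm2 mutant strains. The acs2 wild type and BY4741 were compared here, and they supplied 8 of the 28 libraries, from 4 of the 16 cultures. Each strain had 2 cultures, and each culture had 2 libraries made from 1 RNA extraction, which were averaged, so that n = 2 cultures a side. The members were taken by the strain names in the sample titles and descriptions and not by any measured value. Replicate numbers follow the titles, and the culture called replicate 2 of the acs2 wild type is numbered 3 in its description.

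The labels describe the acs2 wild type only as wild type. They give neither its strain background nor its mating type and markers, and they give no growth temperature and no date of culture, extraction or sequencing for either strain. Both strains were grown in rich medium (YPD, yeast extract, peptone and glucose) to an OD600 of 0.7 to 1, and RNA was purified on RNeasy columns, depleted of ribosomal RNA and made into stranded Illumina libraries. BY4741 is known as a MATa strain of the S288C background in which LEU2, URA3 and MET17 are deleted and HIS3 is deleted in part. Because the 2 strains were not stated to have been grown or sequenced together, genotype, growth conditions and batch cannot be told apart in any difference given here. Whether the 2 cultures of a strain were separate inoculations was not stated. The p-values measure only the spread between cultures of a strain, estimated over 12 cultures of 6 strains and not over these 2 strains alone.

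The 2 strains serve here as a portrait of how far controls can lie apart. A haploid yeast cell expresses either the a or the alpha set of mating genes, and a pheromone signalling pathway through a G protein and the transcription factor Ste12 adds genes for cell fusion. On glucose, yeast represses respiration, the glyoxylate cycle and many hexose transporters, and it ties the output of ribosomal protein genes to nutrient supply. Biosynthetic pathways for pyrimidines, purines and amino acids are known to be set by their intermediates and end products.

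Values are RPKM, reads per kilobase of gene scaled to the mapped reads of the library, as the authors deposited them. Differences are the acs2 wild type minus BY4741 on log2(RPKM + 1), a scale that understates the change of low genes, and the text gives them with their standard error. A gene is called higher or lower where the adjusted p of limma (Benjamini-Hochberg over 7125 genes) lay under 0.05. Depths recovered from the values were 13.7 to 15.6 M reads per library in the acs2 wild type and 13.95 to 36.5 M in BY4741, within 4.33 to 36.5 M over the series. Cultures of 1 strain agreed more closely than strains did. They differed by more than 2-fold at 49 genes in the acs2 wild type and at 230 genes in BY4741, whereas a culture of 1 strain differed from a culture of the other at 1298 to 1866 genes. Over genes, the correlation of log2(RPKM + 1) was 0.994 and 0.984 within the strains and 0.910 to 0.935 between them, as a description of libraries that share an annotation.

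Of the 7125 genes, 3552 were called (49.9%), with 1596 higher (22.4%) and 1956 lower (27.5%) in the acs2 wild type, and 4053 had an unadjusted p under 0.05. The difference was 2-fold or more at 1387 of the called genes, of which 820 were higher and 567 lower, and 8-fold or more at 48 higher and 7 lower genes. Both cultures of the acs2 wild type lay above both of BY4741 at 33.9% of genes and below both at 41.0%. With so many genes apart, the share of any group that is called has to be read against these backgrounds. The median of all genes was -0.07. Scaled to ACT1, which encodes actin and was at 1266 and 1072 RPKM in the acs2 wild type against 1096 and 1702 RPKM in BY4741, the median of all genes rose to 0.11 and the call counts became 1455 higher and 441 lower. The count of calls was 2077 without replicate 2 of the acs2 wild type and 2330 without replicate 2 of BY4741. The scatter of transcript levels shows the named groups against all genes.

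**Figure D1:**
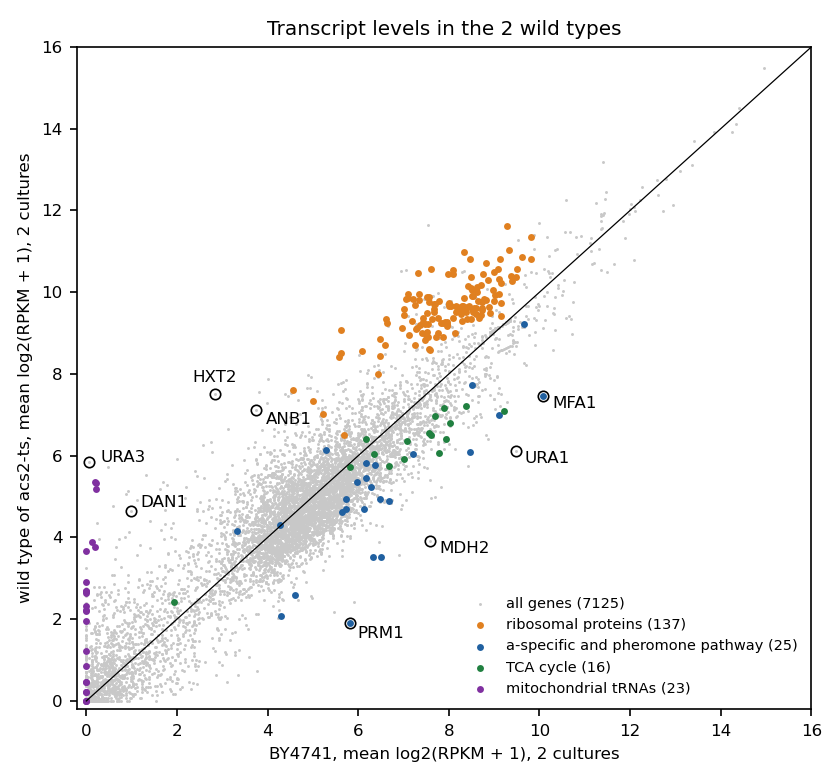
Mean log2(RPKM + 1) of the 2 acs2 wild type cultures (vertical axis) against that of the 2 BY4741 cultures (horizontal axis), 1 point per gene over 7125 genes, with the line of equal values and 4 gene groups in colour. Ribosomal protein genes lie above the line, genes of the tricarboxylic acid (TCA) cycle and of the a-mating and pheromone groups mostly below it, and URA3 stands at 5.85 in the acs2 wild type against 0.07 in BY4741.

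The marker genes separated the strains at 1 locus. URA3, which encodes the orotidine phosphate decarboxylase of uridine synthesis and lies at chromosome V, 116167 to 116970 (R64 assembly, which is sacCer3), was at 57.8 and 55.6 RPKM in the acs2 wild type against 0.0169 and 0.0779 RPKM in BY4741. Over the 4 libraries of each strain this is 2774 reads against 3, a ratio of 1306 per read of depth (95% exact interval 446 to 6336, counting error only). The acs2 wild type thus had URA3 transcript in every library and BY4741 had almost none. The difference was 5.78 ± 0.12 (adjusted p = 2.70e-08), and it was the largest by size among the genes that the naming rule admitted. LEU2, for leucine synthesis, and MET17, the homocysteine synthase, were near 0 in both strains, with 0 against 7 reads and 2 against 14 reads. HIS3, the imidazoleglycerol phosphate dehydratase, was at 67.7 and 53.2 RPKM in the acs2 wild type against 47.8 and 56.2 RPKM in BY4741 and was not called. LYS2, of lysine synthesis, was at 43 and 38.4 against 46.5 and 66.3 RPKM, and TRP1, of tryptophan synthesis, was at 46.4 and 41.7 against 56.8 and 49.7 RPKM, and neither was called. Of the 9 marker genes followed, 3 were called higher and 0 lower, the others being ADE1 (2.15) and ADE2 (0.76) of purine synthesis. Over all genes 22.4% were higher and 27.5% lower. The call of ADE2 was lost without either culture of the acs2 wild type (adjusted p 0.161 and 0.0771), without replicate 2 of BY4741 (adjusted p 0.216) and against the mean of BY4741 and the 3 mutant strains (difference 0.19). Apart from the purine genes the strains differed at URA3 alone, although a promoter fusion or a partial deletion would not be seen in a count over the whole gene.

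Other genes of the pyrimidine pathway differed in the opposite direction to URA3. URA1, the dihydroorotate dehydrogenase, was at 70.3 and 66.5 RPKM in the acs2 wild type against 665 and 757 RPKM in BY4741, a difference of -3.36 ± 0.18 (adjusted p = 2.76e-05). URA2, which encodes the enzyme that opens the pathway, was at 160.3 and 157 against 589.6 and 651 RPKM (-1.96 ± 0.31, adjusted p = 0.00187), and URA4, the dihydroorotase, was at 49.2 and 42.4 against 100.1 and 129.8 RPKM (-1.30 ± 0.21, adjusted p = 0.00189). All 3 were lower in both cultures of the acs2 wild type than in both cultures of BY4741. PPR1, which encodes the activator of these genes, was at 12.9 and 12.1 RPKM in the acs2 wild type against 12.3 and 13.2 RPKM in BY4741, a difference of -0.03 that was not called. Of the 13 genes of pyrimidine synthesis and uptake, 3 were higher and 4 lower, and the median was -0.03 beside -0.07 over all genes. These counts were near the shares over all genes, 22.4% higher and 27.5% lower. Only 1 of the 13 was called higher without replicate 1 of the acs2 wild type or without replicate 2 of BY4741. URA1 was also low in the other strain with a high URA3 level, the acs2-ts strain, at 16.2 and 16.3 RPKM, where URA3 was at 296 and 284 RPKM. It stood at 691 and 504, 809.6 and 734 and 847 and 645 RPKM in the 2 cultures of each of the sam1, ser33 and shm2 strains, in which URA3 did not exceed 0.2 RPKM. The wild type of pyk1 had a URA3 level near that of BY4741, yet its URA1 level lay between the acs2 wild type and BY4741. The median of the 13 genes was also low in acs2-ts, at 27.7 and 22.3 RPKM against 92.2 and 71.7 RPKM in the acs2 wild type. A link between URA3 and URA1 was not tested.

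**Figure D2:**
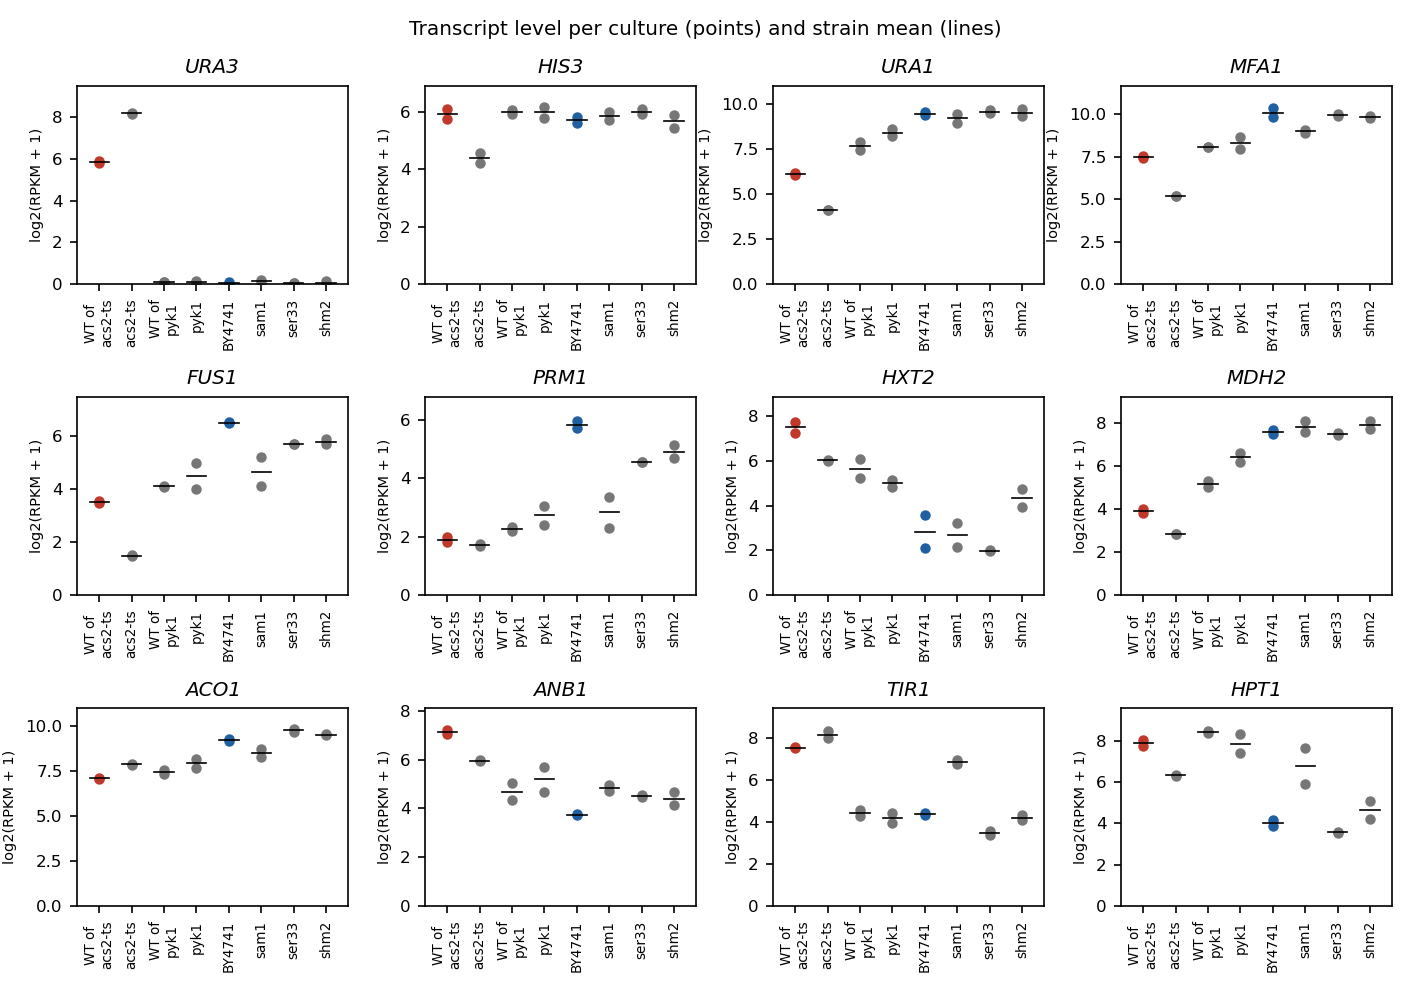
Log2(RPKM + 1) (vertical axis) of 12 genes in each culture of the 8 strains (horizontal axis), with 1 point per culture, a line at the strain mean, the acs2 wild type in red and BY4741 in blue. URA3 is high in the acs2 wild type and in acs2-ts and near 0 in the other 6 strains, and URA1 is lowest in the same 2 strains.

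Both strains had the transcript profile of a cells, and the a-specific genes were lower in the acs2 wild type. All 8 a-specific genes were called lower, with a median of -1.31 (background 27.5% lower). Their median level was 90.5 and 105 RPKM in the acs2 wild type against 326 and 390 RPKM in BY4741. It was also low in the wild type of pyk1 (102 and 108 RPKM), in pyk1 (159 and 120 RPKM) and in acs2-ts (22.1 and 17.7 RPKM). It was 268 and 182 RPKM in sam1, 329 and 339 RPKM in ser33 and 387 and 312 RPKM in shm2. The low acs2-ts level was not particular to a-specific genes. Its ribosomal protein median, for example, was 262 and 245 RPKM against 792 and 753 RPKM in the acs2 wild type. Lists such as glycolysis went the other way (9201 and 9623 against 2823 and 2328 RPKM). MFA1, which encodes the a-factor pheromone, was at 170.0 and 182 RPKM in the acs2 wild type against 1286 and 907 RPKM in BY4741, a difference of -2.61 ± 0.17 (adjusted p = 7.47e-05). BAR1, the secreted protease that degrades alpha-factor, was at 61.5 and 74 against 301 and 409 RPKM (-2.36 ± 0.25, adjusted p = 5.37e-04), and AGA2, the binding subunit of a-agglutinin, was at 119 and 135 against 604 and 508 RPKM (-2.12 ± 0.19, adjusted p = 3.10e-04). In each of these genes both cultures of the acs2 wild type were below both of BY4741. AXL1 and STE6, which process and export a-factor, fell by 1.45 and 1.17 on the log2 scale, and STE2, the receptor for alpha-factor, was at 193 and 230.0 against 351 and 372 RPKM (-0.77). The calls of MFA2 (-0.42) and ASG7 (-1.03) were the weakest of the 8. MFA2 lost its call whichever culture was left out, and ASG7 lost it without any culture other than replicate 3 of BY4741. Relative to ACT1, 5 of the 8 were called lower, and MFA2, ASG7 and STE2 were not. The alpha-specific genes were close to background in both strains, with STE3, the a-factor receptor, at 3.68 and 2.79 against 2.74 and 2.51 RPKM and MF(ALPHA)1, an alpha-factor gene, at 2.32 and 2.46 against 1.66 and 1.69 RPKM. SAG1, alpha-agglutinin, was the exception in level and was lower in the acs2 wild type at 9.77 and 8.58 against 22.3 and 19.4 RPKM (-1.1, adjusted p = 0.00132), a call lost relative to ACT1. HMRA1, whose sequence is shared with the MATa locus so that its reads cannot be assigned to 1 copy, was at 199.7 and 263 RPKM in the acs2 wild type against 65.6 and 41.5 RPKM in BY4741 (2.11 ± 0.30, adjusted p = 0.00141). It was 1 of 2 genes called higher among 6 of the mating type locus and silent cassettes, with 0 lower, a count of 1 without replicate 2 of the acs2 wild type or replicate 3 of BY4741.

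The genes induced by mating pheromone were lower too, and PRM1, PRM6, FUS1 and AGA1 are among the 15 largest falls. Of the 17 haploid and pheromone-induced genes, 14 were called lower and 1 higher (median -1.04), beside 27.5% lower and 22.4% higher over all genes. The lower count was 9 with values relative to ACT1. PRM1, which acts in fusion of the mating cells' plasma membranes, was at 2.5 and 2.98 RPKM in the acs2 wild type against 60.4 and 51.1 RPKM in BY4741, a difference of -3.92 ± 0.30 (adjusted p = 1.40e-04). It was the largest fall among the genes that the naming rule admitted, and it lay below all 8 cultures of BY4741, sam1, ser33 and shm2, as 20.6% of all genes did. FUS1, a membrane protein required for cell fusion, was at 10.1 and 10.7 against 87.4 and 91.1 RPKM (-2.99 ± 0.28, adjusted p = 3.35e-04), and AGA1, the anchor subunit of a-agglutinin, was at 8.7 and 12.6 against 82.8 and 75.6 RPKM (-2.80 ± 0.22, adjusted p = 1.89e-04). FUS2, also of cell fusion, was at 5.22 and 4.78 against 25.1 and 21.7 RPKM (-2.02 ± 0.25), and PRM6, a potassium transporter regulated by pheromone, fell by 3.03. The windows upstream of the 4 fusion and agglutinin genes named first are shown here because Ste12 is known to act at the pheromone response element. Each window runs from 250 bases before to 50 bases after the start that RefSeq gives for the gene on R64 and is printed 5′ to 3′ on the gene's strand. Capitals mark TGAAACA or its reverse complement TGTTTCA, and the windows are at chrIII:71553-71852 for FUS1, chrXIV:110667-110966 for PRM1, chrXIV:703449-703748 for AGA1 and chrXIII:736676-736975 for FUS2, all on the forward strand.
FUS1: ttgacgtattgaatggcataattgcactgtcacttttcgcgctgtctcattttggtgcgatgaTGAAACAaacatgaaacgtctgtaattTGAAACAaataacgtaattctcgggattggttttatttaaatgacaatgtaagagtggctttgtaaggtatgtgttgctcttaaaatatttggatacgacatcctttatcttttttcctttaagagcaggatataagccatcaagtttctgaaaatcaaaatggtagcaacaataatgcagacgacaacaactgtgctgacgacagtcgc
PRM1: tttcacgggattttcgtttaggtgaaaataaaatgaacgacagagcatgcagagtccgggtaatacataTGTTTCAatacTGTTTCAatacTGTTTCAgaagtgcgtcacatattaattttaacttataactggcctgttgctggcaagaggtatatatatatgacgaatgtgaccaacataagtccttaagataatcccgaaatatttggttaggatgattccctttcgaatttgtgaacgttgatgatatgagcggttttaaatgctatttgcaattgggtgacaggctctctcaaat
AGA1: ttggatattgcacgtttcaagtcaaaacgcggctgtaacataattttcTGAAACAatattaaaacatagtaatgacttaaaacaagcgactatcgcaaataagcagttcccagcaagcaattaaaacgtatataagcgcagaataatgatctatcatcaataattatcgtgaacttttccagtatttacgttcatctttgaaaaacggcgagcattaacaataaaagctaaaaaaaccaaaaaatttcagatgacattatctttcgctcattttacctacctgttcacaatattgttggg
FUS2: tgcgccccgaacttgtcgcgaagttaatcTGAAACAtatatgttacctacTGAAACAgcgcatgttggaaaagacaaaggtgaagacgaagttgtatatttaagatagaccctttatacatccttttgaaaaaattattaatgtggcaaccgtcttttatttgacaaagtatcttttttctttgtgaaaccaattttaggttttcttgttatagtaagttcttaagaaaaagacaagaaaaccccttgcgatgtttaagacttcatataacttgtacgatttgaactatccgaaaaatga
The element TGAAACA, searched on both strands, was present in 450 of 5987 such windows in the genome (7.52%), and 25 held it more than once (0.418%). It was found in 8 of the 17 windows of the haploid and pheromone list, with 4 holding it more than once, and in 6 of the 8 a-specific windows, with none in that of MFA1. Among all called genes the share was 6.84% of 1302 windows for higher genes and 9.29% of 1776 for lower genes. A match is a description of these letters and not of a bound site.

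Components and regulators of the pathway were lower as well. KAR4, a factor of karyogamy genes, fell by 1.8 and SST2, which dampens the G protein signal, fell by 1.54 on the log2 scale. GPA1, the G protein alpha subunit, was at 35.7 and 37.7 against 76.8 and 75.9 RPKM (-1.04, adjusted p = 9.23e-04), and STE12, the pathway's transcription factor, was at 26.5 and 23.4 against 49.8 and 54.9 RPKM (-1.04, adjusted p = 0.00205). Both were lower in the acs2 wild type. RME1, a repressor of entry to meiosis, was the 1 member called higher, at 82.6 and 58.8 against 40.7 and 35.6 RPKM (0.86). The Ty3 retrotransposon gene YIL082W-A, whose promoter is known to answer to pheromone, was at 4.13 and 5.41 RPKM in the acs2 wild type against 33.4 and 27.8 RPKM in BY4741 (-2.46 ± 0.23, adjusted p = 3.35e-04). Among the mutant strains, the sam1 cultures were also low for PRM1, at 9.26 and 3.96 RPKM, and for FUS1, at 35.6 and 16.3 RPKM, so that low values of these genes occurred in more than 1 strain of the series.

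The 15 largest differences in each direction also held genes of transport, nucleotide salvage and nitrogen supply, beside mitochondrial tRNAs and small nucleolar RNAs that are described further on. HXT2, a high-affinity glucose transporter on chromosome XIII, 288079 to 289704, was at 214 and 152 RPKM in the acs2 wild type against 3.3 and 11 RPKM in BY4741, a difference of 4.66 ± 0.50 (adjusted p = 5.37e-04). HPT1, the hypoxanthine-guanine phosphoribosyltransferase, was at 258 and 214 against 13.4 and 17.1 RPKM (3.87 ± 0.48, adjusted p = 9.23e-04), and AAH1, adenine deaminase, was at 78.7 and 73.9 against 2.68 and 8.62 RPKM (3.70 ± 0.60, adjusted p = 0.00208). Both salvage genes were above all 8 cultures of BY4741 and the 3 mutant strains, as 14.5% of all genes were. MDH2, the cytosolic malate dehydrogenase of the glyoxylate cycle and gluconeogenesis, was at 15.2 and 13 RPKM in the acs2 wild type against 207 and 178 RPKM in BY4741 (-3.68 ± 0.19, adjusted p = 2.41e-05). GAP1, the general amino acid permease, was at 10.8 and 11 against 112 and 125 RPKM (-3.32 ± 0.33, adjusted p = 3.82e-04), and GDH1, the glutamate dehydrogenase that assimilates ammonium, was at 82.3 and 84.3 against 479 and 448 RPKM (-2.46 ± 0.16, adjusted p = 7.47e-05). These 3 genes were low in both cultures of the acs2 wild type. GRE2, a reductase gene that stress is known to induce, was at 15.9 and 12.1 against 105 and 72.4 RPKM (-2.57). Higher genes of less known role were BSC1 (55.2 and 64.6 against 2.00 and 4.26 RPKM), YMR230W-A (17.5 and 21.6 against 0.173 and 0.174 RPKM) and EGO4, at 3281 and 3113 RPKM in the acs2 wild type against 565 and 60.4 RPKM in BY4741. The 2 BY4741 cultures were themselves far apart at EGO4. RRT15, YER053C-A and YEL008W completed the falls with -2.51, -2.67 and -2.71. RRT15 lies within the ribosomal DNA, which the libraries were depleted of, and its call was lost with technical replicate 1 alone (difference -0.13), without replicate 1 of the acs2 wild type and against the mean of BY4741 and the 3 mutant strains (-1.33).

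**Figure D3:**
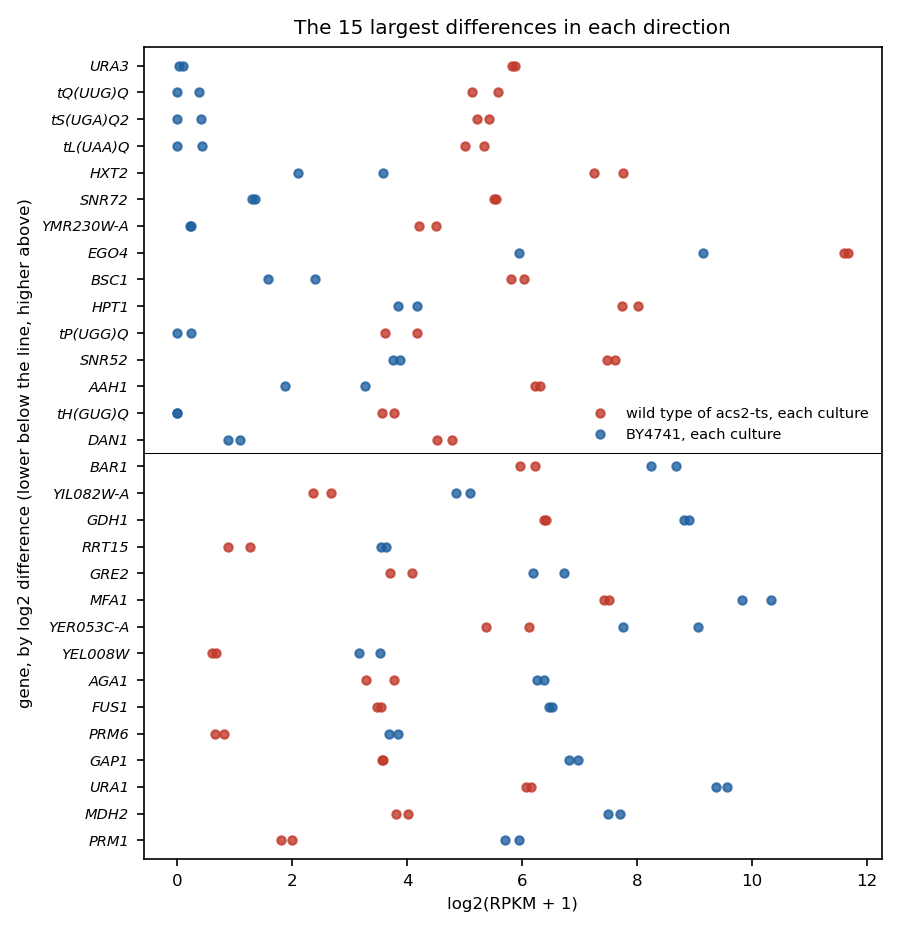
Log2(RPKM + 1) (horizontal axis) in each culture for the 15 largest differences in each direction under the naming rule (vertical axis, 1 gene per row), with higher genes above the line and lower genes below it. The 2 cultures of each strain are plotted singly, and the strains do not overlap in any row, which the rule required.

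Ribosomal protein genes were higher in the acs2 wild type nearly as a whole. The test called 134 of the 137 genes higher and 0 lower, beside 22.4% and 27.5% of all genes. Their median was 1.49 beside -0.07 over all genes. The median level of the 137 genes was 792 and 753 RPKM in the acs2 wild type against 198 and 359 RPKM in BY4741. Together they took 5.66% and 5.62% of the length-weighted RPKM in the acs2 wild type and 1.65% and 2.50% in BY4741. RPL3, of the large subunit, was at 1571 and 1455 RPKM in the acs2 wild type against 151 and 253 RPKM in BY4741 (2.95 ± 0.40, adjusted p = 0.00127), and RPS22B, of the small subunit, was at 509 and 569 against 44.8 and 51.3 RPKM (3.46 ± 0.49, adjusted p = 0.00138). RPS18B and RPS9A rose by 3.15 and 3.06. The 3 genes not called were RPS28A (0.29), RPL7A (0.58) and RPS8A (0.60). The size of the difference varied with the BY4741 culture, since replicate 2 of BY4741 had the lowest values. Without it 80 genes were called, and without replicate 2 of the acs2 wild type 89 were. Other strains also had medians above both BY4741 cultures, with 526 and 790 RPKM in sam1, 665 and 676 RPKM in the wild type of pyk1 and 596 and 593 RPKM in pyk1. In all, 37 of the 134 called genes lay above all 8 cultures of BY4741, sam1, ser33 and shm2, beside 50.9% of all genes called higher.

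Ribosome biogenesis factors followed, at 18 of 23 higher and 0 lower (median 1.37), beside 22.4% and 27.5% of all genes. NSR1, a nucleolar protein of pre-rRNA processing, was at 266 and 221 RPKM in the acs2 wild type against 18.9 and 47.4 RPKM in BY4741 (2.97 ± 0.49, adjusted p = 0.00216). NMD3, the export adaptor of the large subunit, and RPF1, of large-subunit assembly, rose by 2.35 and 2.2. DBP2, an RNA helicase, had a difference of 2.78, which was not called without replicate 2 of BY4741. Without that culture 11 of the 23 genes were called higher and 1 lower. As with the ribosomal proteins, the 2 BY4741 cultures differed more from each other than the 2 acs2 wild type cultures did, with list medians of 22.1 and 50.9 RPKM against 92.0 and 84.8 RPKM.

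Purine synthesis was higher as well, and serine and folate metabolism in part. The test called 9 of 13 purine genes higher and 0 lower (median 0.93), beside 22.4% higher and 27.5% lower over all genes. The median level was 174 and 157 RPKM in the acs2 wild type against 59.8 and 87.1 RPKM in BY4741. It was 161 and 212 RPKM in sam1, 157 and 112 RPKM in shm2, and 168 and 165 RPKM in the wild type of pyk1. The ser33 cultures had 76.5 and 61.4 RPKM and the acs2-ts cultures 49.8 and 42.3 RPKM. Of the 9 called genes, 2 lay above all 8 cultures of BY4741, sam1, ser33 and shm2, beside 50.9% of all genes called higher. ADE17, which acts late in the pathway, was at 403 and 307 against 34.1 and 117 RPKM (2.46 ± 0.55, adjusted p = 0.00695), and ADE4, which catalyses its first step, was at 124 and 93.5 against 21 and 26.8 RPKM (2.14 ± 0.35, adjusted p = 0.00223). ADE1, also a common marker gene, was at 259 and 194 against 44.2 and 56.2 RPKM (2.15). MTD1, the methylenetetrahydrofolate dehydrogenase of cytosolic folate metabolism, was at 182 and 134 RPKM in the acs2 wild type against 13.4 and 16.7 RPKM in BY4741 (3.30 ± 0.52, adjusted p = 0.00190). It was the largest rise among 14 genes of serine, glycine and folate metabolism, of which 6 were higher and 3 lower (median 0.83). Of the 6 called higher, 0 lay above all 8 cultures of BY4741, sam1, ser33 and shm2, again beside 50.9% of all genes called higher. GLY1, threonine aldolase, rose by 1.55. SER3, of serine synthesis, which overlaps the transcript SRG1, had -1.97, a call lost without replicate 2 of either strain (adjusted p 0.0680 and 0.0830). The higher count of this list was 2 without replicate 1 of the acs2 wild type, 4 without its replicate 2 and 2 without replicate 2 of BY4741. The lower count was 1 without replicate 2 of the acs2 wild type or relative to ACT1.

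The subunits of SESAME, the complex of pyruvate kinase, serine and methionine enzymes and acetyl-CoA synthetase named in the title of the series, were not alike. Of 6 genes, 3 were higher and 1 lower, beside 22.4% higher and 27.5% lower over all genes. SHM2 was at 712 and 464 against 124 and 315 RPKM (1.53), SAM1 at 166 and 132 against 33.8 and 87.5 RPKM (1.42), and SAM2 had a difference of 0.63. CDC19, the main pyruvate kinase gene and also known as PYK1, was at 4326 and 3753 against 6392 and 7167 RPKM (-0.75). ACS2, the acetyl-CoA synthetase gene that is mutated in acs2-ts, was at 247 and 218 against 132 and 221 RPKM (0.44) and was not called. None of the 4 calls held under every leave-one-out fit. The count called higher was 0 without replicate 1 of the acs2 wild type or replicate 2 of BY4741 and 1 without replicate 2 of the acs2 wild type, and CDC19 lost its call without replicate 2 of the acs2 wild type or replicate 3 of BY4741, and relative to ACT1.

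In central carbon metabolism, hexose transport genes were called in both directions and TCA cycle genes only lower. The counts stand beside 22.4% higher and 27.5% lower over all genes. Of 15 hexose transport genes, 6 were higher and 2 lower (median 0.33). HXT6, a high-affinity transporter nearly identical to HXT7 so that reads may be split between them, was at 1525 and 1336 against 395 and 187 RPKM (2.39 ± 0.32, adjusted p = 0.00120), and HXT7 rose by 2.22. RGT2, the sensor of high glucose, was at 12.8 and 12 against 41.9 and 35.7 RPKM (-1.57). In the TCA cycle 11 of 16 genes were lower and 0 higher (median -0.97), and the lower count was 5 relative to ACT1. ACO1, aconitase, was at 138 and 132 RPKM in the acs2 wild type against 610.5 and 573 RPKM in BY4741 (-2.12 ± 0.15, adjusted p = 1.18e-04). IDH1, of isocitrate dehydrogenase, was at 69.4 and 62.1 against 263 and 181 RPKM (-1.72), and KGD2, of 2-oxoglutarate dehydrogenase, fell by 1.52. For these genes the cultures of BY4741 were the higher ones without overlap. Of 28 nuclear genes of oxidative phosphorylation, 14 were lower and 2 higher (median -0.41). QCR2 and CYT1, of the cytochrome bc1 complex, fell by 1.22 and 1.08, and ATP1, of the ATP synthase, fell by 0.99. The lower count was 9 without replicate 1 of the acs2 wild type, 6 without its replicate 2, 7 without replicate 2 of BY4741 and 3 relative to ACT1, and the higher count was 1 without replicate 1 of the acs2 wild type.

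Glycolysis, the genes around acetyl-CoA and gluconeogenesis held calls in both directions. The shares over all genes were 22.4% higher and 27.5% lower. Of 17 glycolytic genes, 6 were lower and 1 higher (median -0.02), among them PGI1, phosphoglucose isomerase, at 929 and 811 against 1670.1 and 1756 RPKM (-0.98). PFK1 and PFK2, the subunits of phosphofructokinase, fell by 0.90 and 0.95. The 1 higher call was lost without replicate 1 of the acs2 wild type. Of 18 genes between pyruvate, ethanol, acetate and fatty acids, 8 were higher and 2 lower (median 0.46). ADH5, an alcohol dehydrogenase, was at 73.7 and 77.2 against 24.9 and 16.8 RPKM (1.83 ± 0.26), and ALD5, a mitochondrial aldehyde dehydrogenase, was at 87.5 and 86.2 against 20.1 and 31.5 RPKM (1.75 ± 0.31). The higher count was 3 without replicate 1 of the acs2 wild type, 4 without its replicate 2 and 3 without replicate 2 of BY4741, and the lower count was 1 without replicate 2 of the acs2 wild type. Of 16 genes of gluconeogenesis and the glyoxylate cycle, 4 were lower and 1 higher. ADR1, an activator of glucose-repressed genes, and ICL1, isocitrate lyase, fell by 1.29 and 1.33, whereas JEN1, the lactate transporter, was at 13.5 and 10.2 against 4.35 and 1.84 RPKM (1.71). Relative to ACT1 the lower counts were 3 for glycolysis, 1 for the acetyl-CoA list and 2 for gluconeogenesis.

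**Figure D4:**
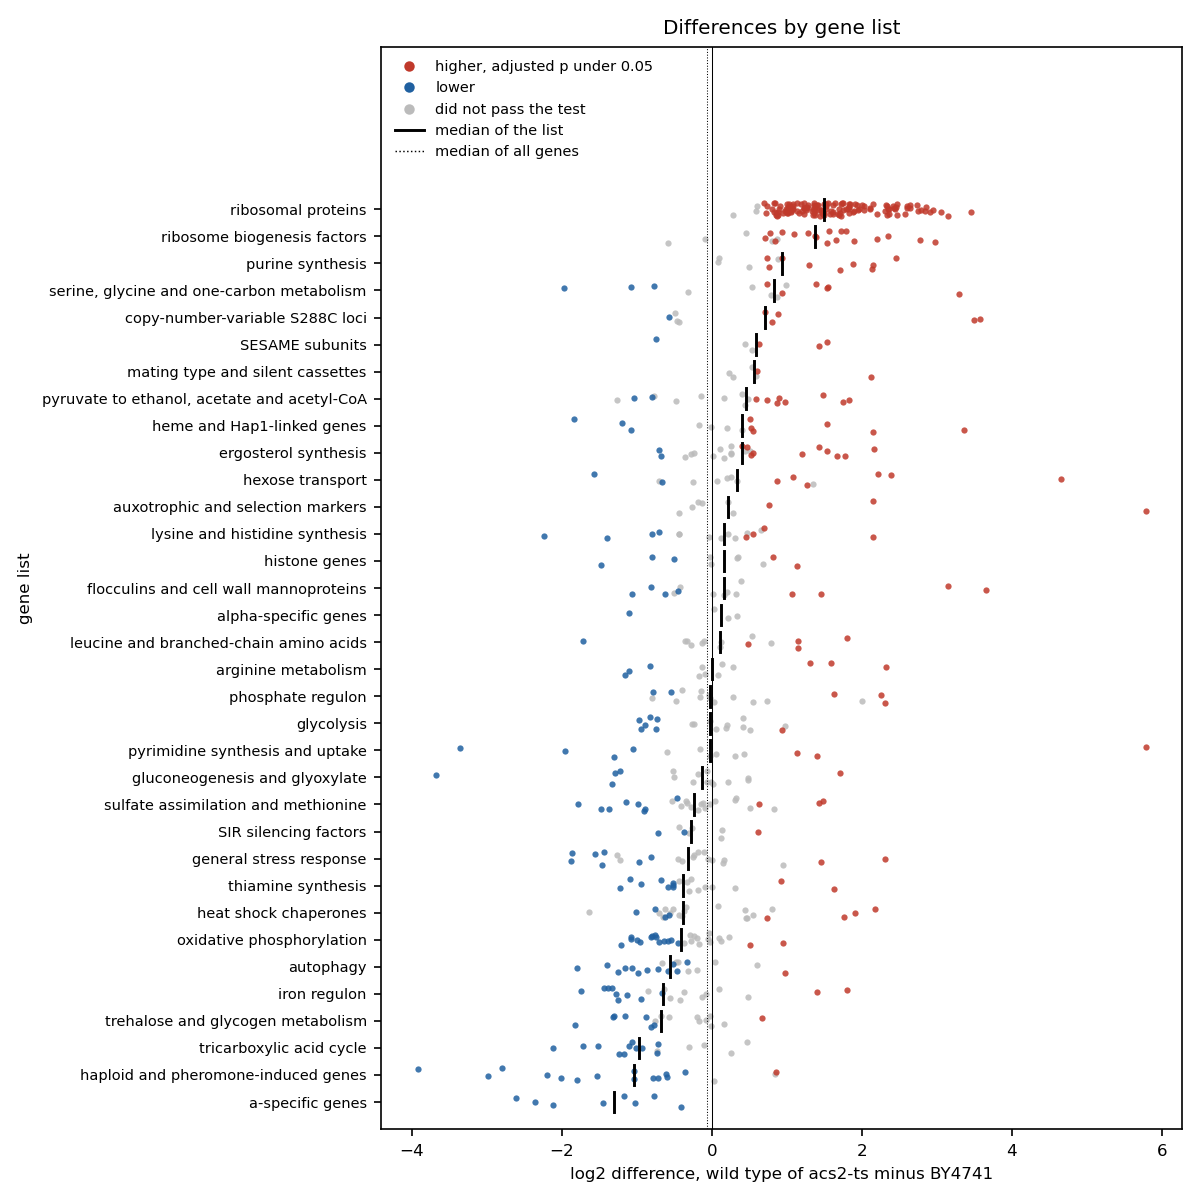
Log2 difference, acs2 wild type minus BY4741 (horizontal axis), for every member of 34 gene lists (vertical axis, ordered by the list's median), 1 point per gene. Red and blue points were called higher and lower and grey points were not called, bars mark list medians, and the lists run from ribosomal proteins at 1.49 to a-specific genes at -1.31.

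Genes regulated by oxygen and heme, and wall proteins linked to them, also set the strains apart. The list counts given below stand beside 22.4% higher and 27.5% lower over all genes. ANB1, a hypoxic isoform of translation factor eIF5A, was at 129.8 and 146 RPKM in the acs2 wild type against 12.4 and 12.5 RPKM in BY4741, a difference of 3.36 ± 0.17 (adjusted p = 2.41e-05). ROX1, the repressor of such genes that heme induces, was at 22 and 18.6 against 44 and 51.7 RPKM (-1.20 ± 0.16, adjusted p = 0.00123) and was lower in the acs2 wild type. AAC3, the hypoxic ADP/ATP carrier, rose by 2.15, and CYB2, the lactate dehydrogenase that depends on heme and Hap1, fell by 1.84. The hypoxic wall mannoprotein gene DAN1 was at 26.4 and 22.1 RPKM in the acs2 wild type against 0.847 and 1.14 RPKM in BY4741 (3.66 ± 0.26, adjusted p = 1.18e-04), and TIR1, of the same family, was at 184 and 179.8 against 18.8 and 20.7 RPKM (3.14 ± 0.15, adjusted p = 2.13e-05). TIR4 rose by 1.45. These genes were also above BY4741 in the sam1 strain, where DAN1 was at 16.6 and 19.7 RPKM and TIR1 at 106 and 119.9 RPKM. The heme and Hap1 list of 13 genes had 6 higher and 3 lower (median 0.40), and the higher count was 3 without replicate 1 of the acs2 wild type or replicate 2 of BY4741. Of the 15 flocculins and wall mannoproteins, 4 were higher and 4 lower, and the lower count was 1 without replicate 2 of either strain and 0 relative to ACT1.

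Ergosterol synthesis, which needs oxygen and heme, was higher at 10 of 23 genes and lower at 2 (median 0.39). ERG2, the sterol isomerase, was at 227 and 214 against 38.6 and 60.6 RPKM (2.16 ± 0.30, adjusted p = 0.00132), and ERG3, the sterol C-5 desaturase, was at 320.4 and 273 against 78.3 and 93.9 RPKM (1.77 ± 0.23). ERG11, the lanosterol demethylase, rose by 1.54. The higher count was 6 without replicate 1 of the acs2 wild type or replicate 2 of BY4741, and the lower count was 0 without replicate 2 of the acs2 wild type or relative to ACT1.

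Amino acid pathways did not move in 1 direction. Several of the counts below were near the shares over all genes, which were 22.4% higher and 27.5% lower. Of 26 genes of sulfate assimilation and methionine, 8 were lower and 3 higher (median -0.23). MET5, the beta subunit of sulfite reductase, was at 19.4 and 18.1 against 72.7 and 61.7 RPKM (-1.78), and MET10, its alpha subunit, was at 17.8 and 16.1 against 47.8 and 49.8 RPKM (-1.47). Of 14 genes of leucine and branched-chain synthesis, 4 were higher and 1 lower. LEU1, isopropylmalate isomerase, was at 71.9 and 82.7 against 191 and 342 RPKM (-1.71 ± 0.25), and LEU9, a minor isopropylmalate synthase, rose by 1.8. Both strains were near 0 for LEU2, and LEU9 and LEU1 act before it in the pathway. Of 16 lysine and histidine genes, 4 were higher and 4 lower. LYS1, saccharopine dehydrogenase, was at 27.6 and 22.4 RPKM in the acs2 wild type against 109.7 and 135 RPKM in BY4741 (-2.25 ± 0.30, adjusted p = 0.00112), and HIS1, which opens histidine synthesis, was at 175 and 152 against 27.2 and 47.7 RPKM (2.15). Of 12 arginine genes, 3 were higher and 3 lower, with ARG1, argininosuccinate synthetase, at 44.1 and 36.9 against 5.78 and 9.13 RPKM (2.32 ± 0.28, adjusted p = 9.23e-04) and ARG4, the enzyme that follows it, at 44.3 and 46.6 against 88.9 and 109.7 RPKM (-1.1). Neighbouring steps of the arginine pathway therefore lay in opposite directions. Higher counts fell to 1 for methionine and for lysine and histidine without any of the same 3 cultures (both of the acs2 wild type and replicate 2 of BY4741). For leucine they fell to 1, 2 and 1, and the lower count of methionine was 5 without replicate 2 of the acs2 wild type. The leucine lower count was 3 without replicate 2 of BY4741. Relative to ACT1 the lower counts were 4 for methionine and 2 for lysine and histidine.

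Stress genes gave no common direction and depended on single cultures. Their counts stand beside 22.4% higher and 27.5% lower over all genes. Of 24 heat shock chaperone genes, 4 were higher and 4 lower (median -0.38). AHA1, the activator of Hsp90, was at 402 and 324 against 107 and 84.3 RPKM (1.91 ± 0.17, adjusted p = 3.10e-04), and HSP10, the mitochondrial co-chaperonin, was at 863 and 799 against 280.3 and 213 RPKM (1.76). HSP30, a plasma membrane heat shock protein, was at 1433 and 1508 RPKM in the acs2 wild type against 723 and 145 RPKM in BY4741 (2.18), and the 2 BY4741 cultures differed from each other there. Its call was lost without either culture of the acs2 wild type (adjusted p 0.0639 and 0.0798). The chaperone counts became 8 higher and 1 lower without replicate 2 of BY4741, and 3 higher and 0 lower without either culture of the acs2 wild type. Of 22 general stress genes, 7 were lower and 2 higher (median -0.32). SOD2, mitochondrial superoxide dismutase, was at 157 and 126 RPKM in the acs2 wild type against 607 and 442 RPKM in BY4741 (-1.87 ± 0.27, adjusted p = 0.00147). HSP12, the most used reporter of this response, was at 1581 and 995 RPKM in the acs2 wild type against 2551 and 875 RPKM in BY4741 and was not called. Replicate 2 of BY4741 was high and replicate 3 low at HSP12, with both cultures of the acs2 wild type between them. The lower count was 3 and 1 without replicates 1 and 2 of the acs2 wild type and 1 without replicate 2 of BY4741, and the higher count was 0 without replicate 1 of the acs2 wild type or replicate 3 of BY4741 and 1 without replicate 2 of the acs2 wild type. Of 17 trehalose and glycogen genes, 7 were lower and 1 higher (median -0.68), with TPS3, of trehalose synthesis, at 55.6 and 47 against 193 and 174 RPKM (-1.82) and NTH1, neutral trehalase, at 115 and 95.1 against 259 and 261 RPKM (-1.3). Relative to ACT1 the lower counts were 0 for chaperones, 1 for general stress and 2 for trehalose and glycogen. The lower count was 3 without replicate 2 of either strain, and the 1 higher call was lost without any culture other than replicate 2 of the acs2 wild type.

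Among metal, phosphate and vitamin genes, the iron regulon leaned to lower values (over all genes, 22.4% were higher and 27.5% lower). Of 20 iron genes, 9 were lower and 2 higher (median -0.65). FIT3, a wall mannoprotein that retains iron siderophores, was at 84.6 and 59 against 185 and 306 RPKM (-1.74), and FRE2, a ferric reductase, was at 6.73 and 4.51 against 16.6 and 16.7 RPKM (-1.44). FTR1, the iron permease, was in contrast at 145 and 107 against 24.5 and 49.6 RPKM (1.81). The regulon thus held members in both directions, and the higher count was 1 without any culture other than replicate 2 of BY4741. PHO89, a sodium phosphate symporter, was at 7.32 and 3.47 against 0.283 and 0.186 RPKM (2.31) within a list of 17 phosphate genes of which 3 were higher and 2 lower. Both lower calls were lost without replicate 2 of the acs2 wild type or replicate 3 of BY4741. Of 18 thiamine genes, 8 were lower and 2 higher, and the lower count was 2 without replicate 2 of either strain and 5 without replicate 3 of BY4741. The higher count was 1 without replicate 2 of either strain. Relative to ACT1 none of the thiamine or phosphate genes was called lower, and 6 phosphate genes were called higher. CUP1-1, the copper metallothionein, was at 1272 and 1708 RPKM in the acs2 wild type against 172 and 87.1 RPKM in BY4741 (3.58 ± 0.36, adjusted p = 4.07e-04). It is 1 of 2 identical annotated copies in an array whose length is known to vary between strains, so reads cannot be assigned to a copy. ENA1, a sodium pump of a second variable array, was at 49.8 and 44.3 against 25.5 and 24.8 RPKM (0.87). Of the 9 genes of copy-number-variable loci, 5 were higher and 1 lower, and the lower call was lost without replicate 2 of either strain or relative to ACT1. Each of the 9, ENA1 among them, has a near-identical copy in the reference. Members may therefore share reads, and the 9 do not count as separate results. Neither gene dosage nor copy number was measured. The 16 nuclear chromosomes had medians from -0.31 to -0.06 over 5646 genes.

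Of genes that bear on silencing and autophagy, 12 of 20 ATG genes were lower and 1 higher (median -0.56). Over all genes 27.5% were lower and 22.4% higher. ATG9, the transmembrane carrier of autophagosome formation, was at 16.3 and 14.9 against 43.9 and 29.9 RPKM (-1.17), and ATG16, a partner of the Atg12 conjugate, was at 8.11 and 6.98 against 19.7 and 18.8 RPKM (-1.25). ATG5 was the 1 higher member, at 34.6 and 32.2 against 17.6 and 15.4 RPKM (0.97). The lower count was 5 without replicate 2 of either strain and 1 relative to ACT1, so the count depended on the scaling. Of 8 genes of the SIR and HST families, SIR4, a structural subunit of silent chromatin, was at 15.6 and 14.5 against 25.7 and 25.4 RPKM (-0.72). SIR2, the deacetylase, was at 22.7 and 19.6 against 12.8 and 14 RPKM (0.62, adjusted p = 0.0127) and lost its call without replicate 1 of the acs2 wild type or replicate 2 of BY4741. In all, 1 of the 8 was higher and 2 lower, and the lower count was 1 without any culture other than replicate 1 of the acs2 wild type. Of 10 histone genes, 2 were higher and 3 lower, with HTB1, of histone H2B, at 326 and 275 against 817 and 857 RPKM (-1.48). Both higher calls were lost without any 1 of the 4 cultures. Relative to ACT1, 0 of the SIR and HST genes were called in either direction, and 1 histone gene was called lower.

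**Figure D5:**
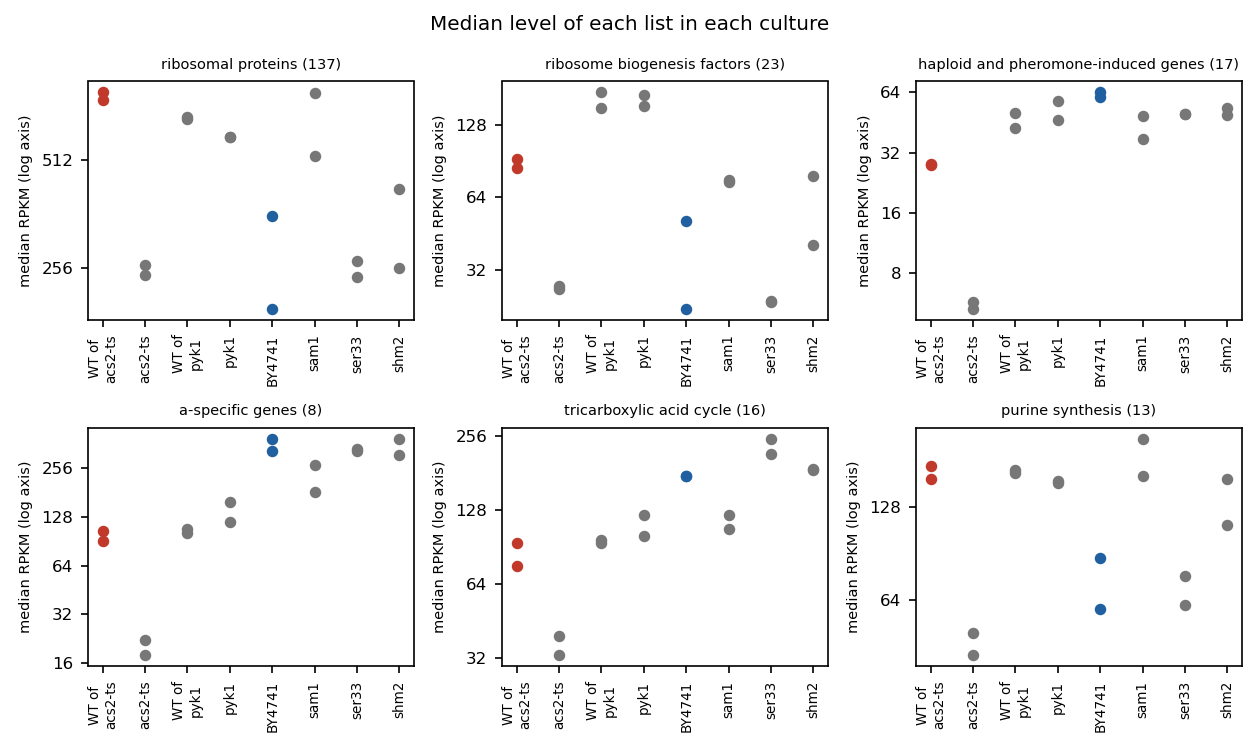
Median RPKM of 6 gene lists (vertical axis, log scale) in each culture of the 8 strains (horizontal axis), 1 point per culture, with the acs2 wild type in red and BY4741 in blue. The ribosomal protein median is 792 and 753 RPKM in the acs2 wild type and 198 and 359 RPKM in BY4741, against 526 and 790 RPKM in sam1, 665 and 676 RPKM in the wild type of pyk1 and 596 and 593 RPKM in pyk1.

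Many transcripts of mitochondrial DNA were called higher in the acs2 wild type, and short RNAs of the nucleus were so only in part. Of 45 features encoded by mitochondrial DNA, 30 were higher and 0 lower (median 0.89), beside 22.4% and 27.5% of all genes. COX3, of cytochrome oxidase, was at 2017 and 3059 RPKM in the acs2 wild type against 707 and 773 RPKM in BY4741 (1.75, adjusted p = 0.00162), and OLI1, of the ATP synthase, was at 7867 and 11040.4 against 2167 and 3381 RPKM (1.78, adjusted p = 0.00335). The rise of OLI1 stood beside a lower ATP1, the nuclear gene of the ATP synthase named above. Of 23 mitochondrial tRNA genes, 16 were called higher, and 18 had 0 reads in all 4 libraries of BY4741. The 23 genes together drew 967 reads in the acs2 wild type and 5 in BY4741. Their share of the length-weighted RPKM was 0.00141% and 0.00176% in the acs2 wild type and 8.03e-06% and 4.56e-06% in BY4741. It was low in ser33 (8.23e-06% and 7.38e-06%) and shm2 (2.42e-05% and 2.06e-05%). The sam1 cultures differed from each other, at 2.01e-04% and 0.00110%, and the wild type of pyk1 had 0.00116% and 0.00151%. At tS(UGA)Q2 the acs2 wild type overlapped the 8 cultures of BY4741, sam1, ser33 and shm2. tQ(UUG)Q, for glutamine, had 184 reads against 1, a ratio of 260 per read of depth (95% exact interval 46.1 to 10319.4). tL(UAA)Q, for leucine, had 183 against 1 (ratio 258, interval 45.8 to 10263.6), tS(UGA)Q2, for serine, 215 against 1 (ratio 304, interval 53.9 to 12048.7) and tP(UGG)Q, for proline, 62 against 1 (ratio 87.6, interval 15.1 to 3513.7). tH(GUG)Q, for histidine, had 54 reads against 0, and its lower culture was at least 3.76-fold higher than the 3 reads per library that a count of 0 allows in BY4741.

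Short RNAs of the nucleus were less uniform. Of 276 other tRNA genes, many of them near-identical copies, 108 were higher and 3 lower, and of 76 small nucleolar RNAs 31 were higher and 8 lower. Over all genes 22.4% were higher and 27.5% lower. SNR72 was at 45.8 and 44.4 RPKM in the acs2 wild type against 1.46 and 1.55 RPKM in BY4741 (4.20 ± 0.94, adjusted p = 0.00686), and SNR52 was at 195 and 178 against 13.8 and 12.5 RPKM (3.73 ± 0.87, adjusted p = 0.00817). Both guide methylation of ribosomal RNA, and SNR72 varied between cultures of 1 strain, at 1.74 and 39.7 RPKM in the sam1 strain. Nuclear protein-coding genes shorter than 200 bases took 0.344% and 0.386% of the length-weighted RPKM in the acs2 wild type against 0.216% and 0.173% in BY4741. Ribosomal protein genes were not taken out of this class. The part of library preparation in the values of short RNAs was not tested.

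The 3 mutant strains gave a wider set of cultures to set the acs2 wild type against. Of the 3552 called genes, 2026 (57.0%) lay beyond all 8 cultures of BY4741 and the sam1, ser33 and shm2 mutant strains, 812 of them higher (11.4% of all genes) and 1214 lower (17.0%). These made up 50.9% of the higher and 62.1% of the lower calls. Against the mean of those 4 strains, 3660 genes were called, 1694 higher and 1966 lower. URA3, HXT2, PRM1 and MDH2 were among the genes beyond all 8 cultures, whereas many ribosomal protein genes were not.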

How the data were processed

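The authors deposited 1 table of RPKM values per gene and library. Per the submitters' processing notes, CASAVA 1.8.2 and TopHat2 2.0.13 with the sacCer3 genome were used and edgeR is listed; the settings are not given in the sources used here. Nothing shows how reads from near-identical copies were counted. The table has 32 further columns that were not used.

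From the deposited RPKM, log2(RPKM + 1) was averaged over the 2 libraries of a culture, and limma 3.58.1 (R 4.3.3, trended empirical Bayes) was fitted to 12 cultures of 6 strains, with Benjamini-Hochberg adjustment over 7125 genes. Read totals were recovered from the steps between low RPKM values, with 99.3% to 100% of values whole. Intervals and floors cover counting error only. The fit was tested on simulated data. Gene names, coordinates and windows came from RefSeq (R64), and near-identical copies from BLAST+ 2.17.0 (95% identity over 80% of length).

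The members and the gene lists were chosen with earlier results of these data known. Genes are named by rule: in each direction the 15 largest called differences with no near-identical copy, at least 5 RPKM in the higher strain and no overlap between strains, and 2 to 6 members of each list, those with the largest called differences and those whose role defines the list. Lists are described by counts and medians, and no set test was run. The alternatives tried were a pseudocount of 0.1, a minimum of 1 RPKM, either technical library alone, other sets of strains in the fit, other scalings, a 2-fold minimum, removal of near-identical genes, another comparison group and each culture left out. Comparisons of the mutant strains are not analysed here.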

Additional observations from a re-analysis of the deposited data

How the results depend on the processing

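Limits. Each strain had 2 cultures, and a fit that left 1 out assumed that the lone culture varied like those of the other strains. Depth set no limit for most genes named, except the mitochondrial tRNAs and the deleted markers, and counting intervals do not hold the spread between cultures. Genotype, growth and batch cannot be told apart. No paired analysis was possible because the strains share only 1 replicate number, by the titles (2) and by the descriptions (3) alike. The planned replicate block was not run for that reason. The cause of the changes given here was not tested.

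The total of 3552 calls became 1896 relative to ACT1 (441 lower) and 1387 with a minimum of 2-fold (820 higher, 567 lower). With only the 2 wild types in the fit it was 2794 (1368 higher, 1426 lower). In that fit 6 named genes lost their call, namely SHM2, SAM1, CDC19, HSP30, ADE2 and MFA2. The lower count of oxidative phosphorylation was 8 there, that of thiamine genes was 4, and the higher count of serine, glycine and folate genes was 3. Leaving out 1 culture gave 2077 to 3024 calls, with 982 to 1356 higher and 950 to 1728 lower. The median of all genes changed sign to 0.012 with median-of-ratios scaling, which left 3550 calls, and to 0.11 relative to ACT1. The share of higher among called genes was 44.9%, against 76.7% relative to ACT1, 36.2% without replicate 1 of the acs2 wild type, 54.3% without its replicate 2 and 52.3% with median-of-ratios scaling.

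Of 1896 values of 136 named genes under the alternatives, 1812 kept direction and side of the threshold, 57 lost the call (12 of them relative to ACT1), 17 gained it and 10 changed sign, each at a gene not called. PPR1 became 0.039 with technical replicate 1, 0.074 with median-of-ratios scaling and 0.19 relative to ACT1, and ranged from -0.073 to 0.021 without 1 culture. MET17 became 0.020 with technical replicate 2. Without 1 culture RPS28A ranged from -0.11 to 0.68, HSP12 from -1.02 to 0.52 and ACT1 from -0.55 to 0.087. Among the 30 genes with the largest differences, 29 kept their call under all 14 alternatives, RRT15 being the exception.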

Other observations

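The control of the pyk1 strain gave another wild type in the series, with 2 cultures of 1 library each that stayed out of the comparison. Its URA3 level was 0.079 and 0.084 RPKM, near that of BY4741, and its URA1 level was 174 and 239 RPKM, between the acs2 wild type and BY4741. PRM1 was at 4.01 and 3.57 RPKM and FUS1 at 16.3 and 15.9 RPKM there, MDH2 at 31.3 and 38.2 RPKM, HXT2 at 36.2 and 66.6 RPKM and DAN1 at 0.846 and 0.677 RPKM. No test was run on these values.

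The 3 genes given next lie outside the naming rule's 15 and were chosen after their values were seen. INO1, the inositol phosphate synthase of phospholipid supply, was at 88.6 and 72.4 RPKM in the acs2 wild type against 5.38 and 6.1 RPKM in BY4741 (3.59 ± 0.23, adjusted p = 7.47e-05, limma). HES1, an oxysterol-binding protein, was at 19.3 and 14 RPKM in the acs2 wild type against 0.715 and 1.15 RPKM in BY4741 (3.18 ± 0.24, adjusted p = 1.41e-04), and FCY2, the purine and cytosine permease, was at 274 and 232 RPKM in the acs2 wild type against 22.3 and 37.1 RPKM in BY4741 (3.09 ± 0.39, adjusted p = 9.83e-04). In each of them both cultures of the acs2 wild type were above both of BY4741, as at 33.9% of all genes.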
